A study of Mus musculus with 2 samples.

Results

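Nutrient transporters carry sugars, amino acids, nucleosides and short organic acids across the membranes of cells. The transcripts of 9 transporter genes, chosen by gene symbol, were followed through red cell development in the wild-type liver of a C57BL/6 mouse embryo (C57BL/6J in the methods) at the embryonic stage E12.5. They were Slc2a1, Slc2a3, Slc7a5, Slc3a2, Slc43a1, Slc38a5, Slc29a1, Slc1a5 and Slc16a1, which are 9 of the 27998 genes in the count matrices. The genes were chosen with earlier results of these data known, so shares of all genes beside counts of members are descriptions only. No mutant, treatment or second time point was part of these data. Sorted living cells of the liver were encapsulated in droplets and sequenced as libraries 1 and 2, which the methods call technical replicates of 1 liver, whereas the series description speaks of separate suspensions. Each library was therefore evaluated on its own, no test between animals was possible, and no p-value is given.

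Dividing erythroid precursors grow quickly and fill with hemoglobin, for which they need glucose, amino acids and nucleosides. GLUT1 (Slc2a1) and GLUT3 (Slc2a3) are facilitative glucose transporters, and in the mouse the red cells of the fetus carry GLUT1 whereas those of the adult largely lack it. LAT1 (Slc7a5) imports leucine and other large neutral amino acids only as a heterodimer with the CD98 heavy chain (Slc3a2), while LAT3 (Slc43a1) carries a similar set of amino acids and works without a heavy chain. SNAT5 (Slc38a5) and ASCT2 (Slc1a5) carry glutamine and other small neutral amino acids, ENT1 (Slc29a1) equilibrates nucleosides, and MCT1 (Slc16a1) exchanges lactate and pyruvate together with its chaperone basigin (Bsg).

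The deposited table assigned 5480 cells of library 1 and 5057 cells of library 2 to 13 groups. These were hematopoietic stem and progenitor cells (HSPC), 6 definitive erythroid clusters named Ery 1 to Ery 6, primitive erythroid cells of yolk sac origin (EryP), megakaryocytes (Mk), granulocytes (G), monocytes and Kupffer cells (Mo/KC), endothelial cells (EC) and hepatoblasts (Hepa). Markers of HSPC, EryP, Mk, G, Mo/KC, EC and Hepa each had their highest summed level in the group of that name in both libraries, and no group was renamed. Of the 4 HSPC markers, Kit and Cd34 were highest in HSPC in both libraries, whereas Myb was highest in G and Ptprc in Mo/KC. The erythroid clusters held between 359 and 1357 cells per library, with 2921121 to 11535778 unique molecular identifiers (UMIs, tags that mark single captured RNA molecules). Median UMIs per cell were 26146 and 25977 in Ery 1 of libraries 1 and 2, and 4378 and 7882.5 in Ery 6. The libraries shared 31 cell barcodes, of which 3 had the same group in both.

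Levels are given as CPM, the UMIs of a gene summed over a group per 1000000 UMIs of that group, with exact Poisson 95% intervals that cover counting error only. The denominator matters here because globin transcripts fill the late clusters. The share of UMIs from 7 globin genes was 1.07% and 2.37% in Ery 1, against 58.1% and 78.5% in Ery 6. CPM of any other gene was thus diluted in late clusters, and more so in library 2. For this reason CPM without globin UMIs and mean UMIs per cell are given beside CPM where they differ for the members. Other named genes are given by CPM alone. In all pairs of values below, library 1 comes first.

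The 9 genes had their highest CPM at different places along the erythroid course. Slc2a3 was highest in Ery 1, where 55.8% of 6562 genes with at least 10 CPM in a cluster of each library were also highest. Slc29a1 was highest in Ery 2 (9.04% of all genes), and Slc38a5 in Ery 4 of library 1 and Ery 3 of library 2 (Ery 3 in both libraries, 3.73% of all genes, Ery 4 in both, 0.960%). Slc43a1, Slc1a5, Slc3a2 and Slc7a5 were highest in Ery 5 (3.52% of all genes) and Slc2a1 in Ery 6 (3.98% of all genes). Slc16a1 was highest in Ery 6 of library 1 and Ery 4 of library 2, with little difference between clusters. In total, 7 of the 9 members were highest in the same cluster in both libraries (all genes, 77.0%), and 6 of the 9 were highest in Ery 4, Ery 5 or Ery 6 in each library (all genes, 10.5%). On the scale of UMIs per cell, which is not divided by the size of the cell's library, 3 of the 9 were highest that late in each library, namely Slc2a1, Slc43a1 and Slc1a5 (all genes, 4.22%).

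The 250 bases before the annotated start are shown for Slc29a1, Slc38a5, Slc43a1 and Slc2a1, whose levels were highest at successive places of this course. They are RefSeq sequences of the mouse build GRCm38.p6, read 5′ to 3′ towards the gene. Capitals mark 3 motifs on either strand. ACGTG is the core of the hypoxia response element. CACGTG is the E box and always holds the former. CCNCNCCC is the motif of the erythroid factor KLF1. The GATA factor motif AGATAA, its other form TGATAA, and the ATF4 motif TGATGNAA were searched as well and were found in none of these 4 windows. Slc29a1 has 8 windows in the RefSeq table, of which the outermost is shown. The Slc43a1 window, all but the first bases of the Slc38a5 window, and the end of the Slc2a1 window lie inside the gene spans given below, since the annotations place these starts differently.
Slc29a1, chr17:45599619-45599868, minus strand: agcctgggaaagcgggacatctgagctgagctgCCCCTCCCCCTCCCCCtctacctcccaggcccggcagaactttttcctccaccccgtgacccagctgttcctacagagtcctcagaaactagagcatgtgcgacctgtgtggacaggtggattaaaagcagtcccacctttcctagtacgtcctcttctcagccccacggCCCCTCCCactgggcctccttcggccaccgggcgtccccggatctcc
Slc38a5, chrX:8271131-8271380, plus strand: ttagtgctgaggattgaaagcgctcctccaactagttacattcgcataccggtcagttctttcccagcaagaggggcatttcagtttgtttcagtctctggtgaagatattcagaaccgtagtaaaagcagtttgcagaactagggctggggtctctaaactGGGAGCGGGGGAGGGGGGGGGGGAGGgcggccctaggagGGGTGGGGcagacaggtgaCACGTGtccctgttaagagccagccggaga
Slc43a1, chr2:84840073-84840322, plus strand: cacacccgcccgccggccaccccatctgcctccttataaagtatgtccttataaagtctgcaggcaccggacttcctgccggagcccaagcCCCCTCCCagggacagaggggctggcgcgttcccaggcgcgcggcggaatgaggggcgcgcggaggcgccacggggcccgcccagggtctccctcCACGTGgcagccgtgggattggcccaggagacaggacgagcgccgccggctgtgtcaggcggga
Slc2a1, chr4:119108495-119108744, plus strand: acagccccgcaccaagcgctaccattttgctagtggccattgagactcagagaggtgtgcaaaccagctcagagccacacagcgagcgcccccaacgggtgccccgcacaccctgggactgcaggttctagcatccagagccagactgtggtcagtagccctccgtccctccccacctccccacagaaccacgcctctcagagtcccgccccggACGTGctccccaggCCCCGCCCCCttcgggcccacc

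Windows were found for 6 of the 9 members, the other two being Slc3a2 and Slc16a1, and none was in the table for Slc2a3, Slc7a5 and Slc1a5. CCNCNCCC occurred in 5 of the 6 windows and in 45.9% of all 32851 windows of this length. ACGTG occurred in 5 of 6 against 16.6% of all windows, and CACGTG in 3 of 6 (Slc43a1, Slc38a5 and Slc16a1) against 6.02%. TGATAA occurred in 1 of 6 (Slc16a1) against 7.94% of all windows, whereas AGATAA, held by 9.99% of all windows, occurred in none of the 6. The ATF4 motif TGATGNAA, held by 3.45%, likewise occurred in none. In the Slc2a1 window, ACGTG began 36 bases and CCNCNCCC 22 and 20 bases before the start. In the Slc38a5 window, a stretch rich in G matched CCNCNCCC several times on the other strand, and CACGTG began 30 bases before the start. A match of letters describes the sequence and does not show that a factor was bound.

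**Figure D1:**
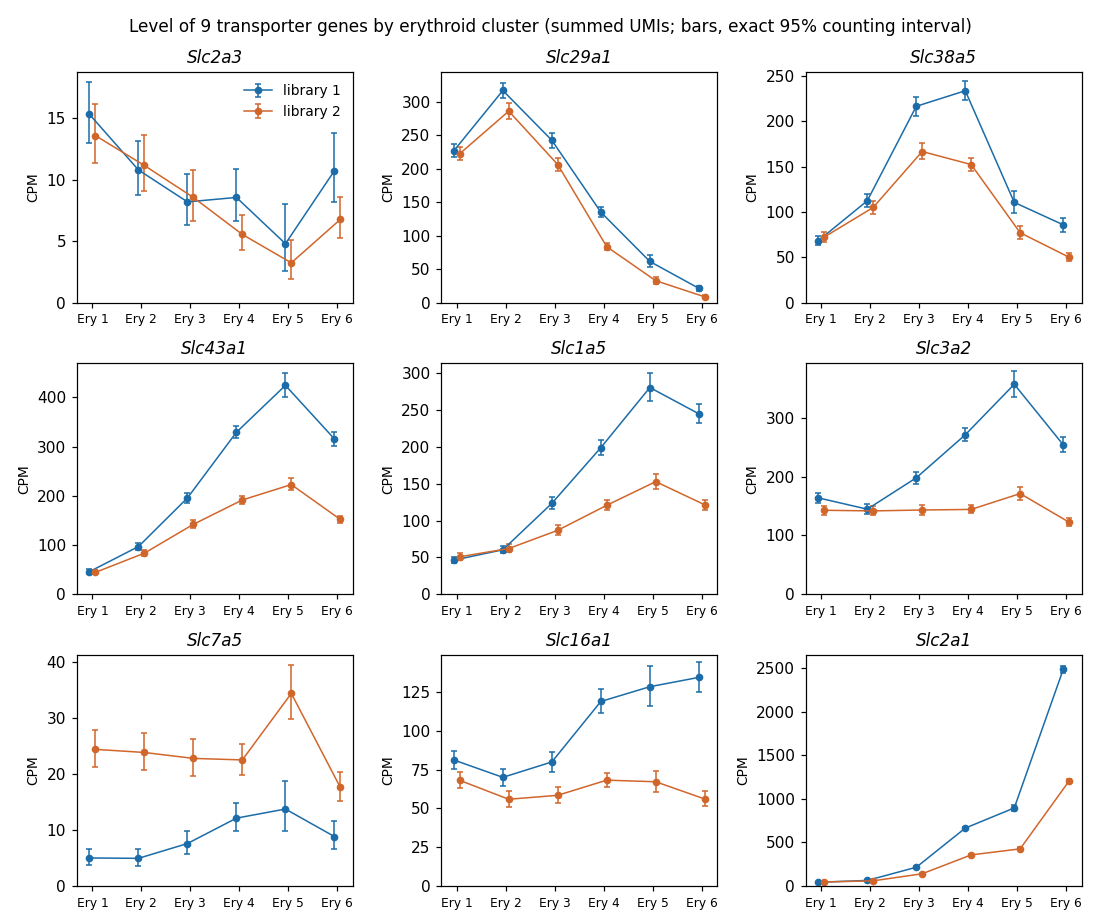
CPM (y axis) of the 9 transporter genes in the erythroid clusters Ery 1 to Ery 6 (x axis) of library 1 (blue) and library 2 (orange), with exact Poisson 95% intervals as bars. Slc29a1 is highest in Ery 2, Slc38a5 in Ery 3 or Ery 4, Slc43a1 and Slc1a5 in Ery 5, and Slc2a1 reaches 2489.8 CPM in library 1 and 1206 CPM in library 2 in Ery 6.

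Slc2a3 (ENSMUSG00000003153, chr6:122727809-122801640, minus strand, build GRCm38 as for all positions here) encodes GLUT3, a glucose transporter with high affinity that is known from neurons and platelets. From Ery 1 to Ery 6 it measured 15.3, 10.8, 8.19, 8.55, 4.79 and 10.7 CPM in library 1. The values in library 2 were 13.6, 11.1, 8.55, 5.55, 3.24 and 6.76 CPM. All these levels were low, and the highest rested on 151 and 126 UMIs in Ery 1. Free RNA held 18.2 and 10.7 CPM, above every erythroid cluster of library 1 and above Ery 3 to Ery 6 of library 2. Ery 1 exceeded Ery 2 beyond counting error in library 1 (1.42-fold, 95% interval 1.09 to 1.85) but not in library 2 (1.22-fold, 0.927 to 1.60). Outside the erythroid clusters, Slc2a3 was highest in megakaryocytes at 206 and 88.7 CPM, and this level differed between the libraries beyond counting error.

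Slc29a1 (ENSMUSG00000023942, chr17:45585200-45599606, minus strand) encodes ENT1, through which nucleosides enter cells down their gradient. In library 1 the 6 clusters held 227, 317, 242, 135, 61.6 and 21.6 CPM in order. In library 2 they held 222, 286, 206, 83.7, 32.9 and 8.88 CPM. The level was highest in Ery 2, 14.6-fold above Ery 6 in library 1 (95% interval 12.2 to 17.7) and 32.2-fold in library 2 (26.0 to 40.3). Counted per cell it was highest in Ery 1, with 5.97 and 5.75 UMIs per cell, against 5.22 and 5.42 in Ery 2. Ery 6 held 0.101 and 0.0748 UMIs per cell. In library 1, 155 of the 557 Ery 2 cells held fewer than 3600 UMIs, against 0 of the 375 Ery 1 cells. Such shallow cells lower a mean per cell, and the order of Ery 1 and Ery 2 without them was not tested. Endothelial cells carried Slc29a1 at 301 and 259 CPM, which did not differ beyond counting error from Ery 2 in either library. The Ery 6 level was below that of free RNA, measured in barcodes with 1 to 50 UMIs, which held 113 and 114 CPM. With free RNA subtracted as 10% of the UMIs of each group, Ery 6 came to 11.5 and 0 CPM, and Ery 2 remained the highest erythroid cluster.

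Slc38a5 (ENSMUSG00000031170, chrX:8271133-8280179, plus strand) encodes SNAT5, a carrier of glutamine, asparagine, histidine and serine. Ery 1 to Ery 6 held 68.4, 112, 216, 234, 111 and 85.9 CPM in library 1. The same clusters held 72.4, 105, 167, 152, 77.2 and 50.2 CPM in library 2. Ery 3 and Ery 4 stood above the clusters before and after them in both libraries, and between themselves differed by 1.08-fold in favour of Ery 4 in library 1 and by 1.09-fold in favour of Ery 3 in library 2. Without globin UMIs, Ery 4 was highest in both, at 367 and 356 CPM. Per cell, Ery 3 was highest in both, at 2.23 and 2.12 UMIs, followed by Ery 2 at 1.85 and 1.99. In library 1, 155 of the 557 Ery 2 cells and 12 of the 748 Ery 3 cells held fewer than 3600 UMIs. Such shallow cells lower a mean per cell, and the order of Ery 2 and Ery 3 without them was not tested. The gene was nearly absent from HSPC, with 6.38 and 3.84 CPM from 22 and 12 UMIs.

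Slc43a1 (ENSMUSG00000027075, chr2:84838850-84863594, plus strand) encodes LAT3, a carrier of leucine, isoleucine, valine and phenylalanine that erythroid cells are known to need for hemoglobin synthesis. Its levels from Ery 1 to Ery 6 were 46.0, 97.0, 196, 329, 424 and 316 CPM in library 1. They were 44.5, 83.5, 142, 192, 223 and 152 CPM in library 2. Ery 5 was highest in both libraries and on all 3 scales, 9.23-fold above Ery 1 in library 1 (95% interval 8.28 to 10.3) and 5.01-fold in library 2 (4.48 to 5.61). Free RNA held 156 and 111 CPM, above the Ery 1 level. With it subtracted as 10%, Ery 1 came to 33.8 and 37.1 CPM and Ery 5 to 454 and 235 CPM, so the fold depends on the assumed share of free RNA. Without globin UMIs the libraries lay close together, with 869 and 836 CPM in Ery 5.

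Slc1a5 (ENSMUSG00000001918, chr7:16781340-16798274, plus strand) encodes ASCT2, a sodium-dependent exchanger that brings glutamine into dividing cells. The clusters of library 1 held 46.4, 60.4, 123, 199, 281 and 245 CPM. Those of library 2 held 50.9, 62.2, 86.9, 121, 153 and 122 CPM. Free RNA held 132 and 112 CPM, above the Ery 1 level, and with it subtracted as 10% Ery 1 came to 36.9 and 44.2 CPM. Ery 5 exceeded the next highest cluster, Ery 6, by 1.15-fold (95% interval 1.05 to 1.25) and 1.26-fold (1.15 to 1.37). Without globin UMIs, Ery 5 held 574 and 574 CPM and Ery 6 584 and 565 CPM. Per cell the gene varied little, from 0.996 to 1.65 UMIs in library 1 and from 1.02 to 1.52 in library 2.

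Slc3a2 (ENSMUSG00000010095, chr19:8706882-8723369, minus strand) encodes the CD98 heavy chain, which takes amino acid transporter light chains to the cell surface. Library 1 held 164, 145, 198, 271, 357 and 254 CPM from Ery 1 to Ery 6. Library 2 held 143, 142, 143, 144, 171 and 122 CPM. Free RNA held 150 and 124 CPM, above Ery 2 of library 1 and Ery 6 of library 2. With free RNA subtracted as 10%, Ery 5 came to 380 and 176 CPM and remained the highest erythroid cluster. Ery 5 exceeded Ery 4 by 1.32-fold (95% interval 1.22 to 1.42) and 1.19-fold (1.10 to 1.28), and in library 2 Ery 1, Ery 2, Ery 3 and Ery 4 lay between 142 and 144 CPM. Per cell, Slc3a2 was highest in Ery 1 with 4.31 and 3.69 UMIs. Among the other groups it was highest in Mo/KC, at 229.9 and 193 CPM.

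Slc7a5 (ENSMUSG00000040010, chr8:121881150-121907694, minus strand) encodes LAT1, the light chain that pairs with CD98 to import leucine. It was low throughout, with 4.96, 4.90, 7.54, 12.1, 13.7 and 8.78 CPM from Ery 1 to Ery 6 in library 1. The values were 24.3, 23.8, 22.7, 22.5, 34.3 and 17.6 CPM in library 2. Unlike the other members, Slc7a5 was higher in library 2 in each of the 6 erythroid clusters. It was also higher there in every other group, though not beyond counting error in EryP, Mo/KC, EC and Hepa. Free RNA held 8.61 and 20.9 CPM. The difference was thus not particular to erythroid clusters. The ratio of library 2 to library 1 was 4.90 in Ery 1 (95% interval 3.59 to 6.82), where the median ratio of 6505 genes was 0.956 and 3 genes had a higher one. Since both libraries came from 1 liver, no level of Slc7a5 is given as that of the liver. Ery 5 was the highest cluster in both, but in library 1 it did not exceed Ery 4 beyond counting error (1.13-fold, 0.764 to 1.66).

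The transcripts of the light chain LAT1 and of the independent carrier LAT3 were set against those of the CD98 heavy chain. There were 0.281 and 0.312 Slc43a1 UMIs per Slc3a2 UMI in Ery 1, and 0.989 and 0.992 in Ery 3. In Ery 6 the ratio was 1.24 and 1.24 (95% intervals 1.16 to 1.33 and 1.15 to 1.34). The ratio of Slc43a1 to Slc3a2 was thus higher in Ery 6 than in Ery 1 in both libraries, beyond counting error, and it needs no denominator of all UMIs. The ratio of Slc7a5 to Slc3a2 was 0.0303 and 0.171 in Ery 1 and 0.0346 and 0.143 in Ery 6. Within each library it stayed between 0.0303 and 0.0445 (library 1) or 0.143 and 0.201 (library 2) over the 6 clusters. The size of such a ratio also depends on how well each transcript is captured, so only its differences between clusters are described.

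**Figure D2:**
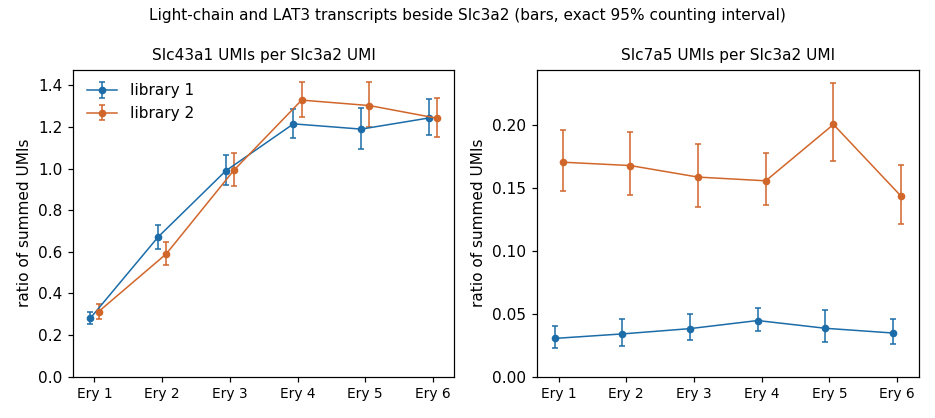
Summed UMIs of Slc43a1 (left) and Slc7a5 (right) per UMI of Slc3a2 (y axes) in Ery 1 to Ery 6 (x axes) for library 1 (blue) and library 2 (orange), with exact 95% intervals as bars. The Slc43a1 ratio is 0.281 and 0.312 in Ery 1 and 1.24 and 1.24 in Ery 6 with the libraries close together, whereas the Slc7a5 ratio differs between the libraries at every cluster.

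Slc16a1 (ENSMUSG00000032902, chr3:104638668-104658462, plus strand) encodes MCT1, which carries lactate, pyruvate and ketone bodies with a proton. Ery 1 to Ery 6 held 81.3, 70.1, 80.1, 119, 129 and 135 CPM in library 1. In library 2 they held 68.2, 55.9, 58.5, 68.3, 67.3 and 56.1 CPM. The highest erythroid cluster exceeded the lowest by 1.92-fold and 1.22-fold on the CPM scale, where this was the smallest spread of the 9 members in each library. Per cell the spread was 3.40-fold and 3.73-fold, and without globin UMIs 4.43-fold and 4.32-fold, neither of them the smallest. Without globin UMIs, Ery 6 was highest in both (321 and 261 CPM), and per cell Ery 1 was highest in both (2.14 and 1.76 UMIs). Bsg, which encodes the chaperone that MCT1 needs at the membrane, measured 586 and 493 CPM in Ery 1 and 1794 and 836 CPM in Ery 5. Slc16a1 UMIs per Bsg UMI were 0.139 and 0.138 in Ery 1, 0.0599 and 0.0663 in Ery 3 and 0.121 and 0.110 in Ery 6.

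Slc2a1 (ENSMUSG00000028645, chr4:119108711-119137983, plus strand) encodes GLUT1, the main glucose transporter of red cells. From Ery 1 to Ery 6 it measured 40.6, 61.6, 213, 663, 896 and 2489.8 CPM in library 1. In library 2 it measured 44.2, 57.2, 138, 355, 425 and 1206 CPM. Each cluster was higher than the one before it in both libraries, and Ery 6 exceeded Ery 5 by 2.78-fold (95% interval 2.67 to 2.90) and 2.84-fold (2.72 to 2.97). Ery 6 exceeded Ery 1 by 61.3-fold and 27.3-fold. Without globin UMIs, Ery 6 held 5936 and 5609.6 CPM, so the libraries lay closer than on the CPM scale. Per cell it held 11.6 and 10.2 UMIs against 1.02 and 1.08 in Ery 2, although cells of Ery 6 had the fewest UMIs of the erythroid clusters.

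The low Slc2a1 levels of early cells lay near what free RNA could give. Free RNA held 441 and 369 CPM of Slc2a1. With free RNA subtracted as 10% of the UMIs of each group, Ery 1 came to 0 and 8.02 CPM, while Ery 6 came to 2718 and 1299 CPM. The fold between Ery 6 and Ery 1 therefore depends on the share of free RNA in a droplet, which was assumed here and not measured.

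The 3 scales agreed for some members and parted for others. On all 3 scales and in both libraries, Slc2a1 was highest in Ery 6 and Slc43a1 in Ery 5. Slc29a1 was highest in Ery 2 by both CPM scales and in Ery 1 per cell, with the shallow Ery 2 cells of library 1 counted in. Slc3a2 and Slc7a5 were highest in Ery 5 by both CPM scales and in Ery 1 per cell. Slc2a3 was highest in Ery 1 by CPM and per cell, but in Ery 6 without globin UMIs, at 25.5 and 31.4 CPM. The cells were also ordered without clusters, by their share of UMIs from 4 adult globin genes, in 10 equal groups per library. Slc29a1 was then highest in the second group of both libraries, Slc38a5 in groups 5 and 4, Slc43a1 in group 7 of both, and Slc2a1 in groups 10 and 9.

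**Figure D3:**
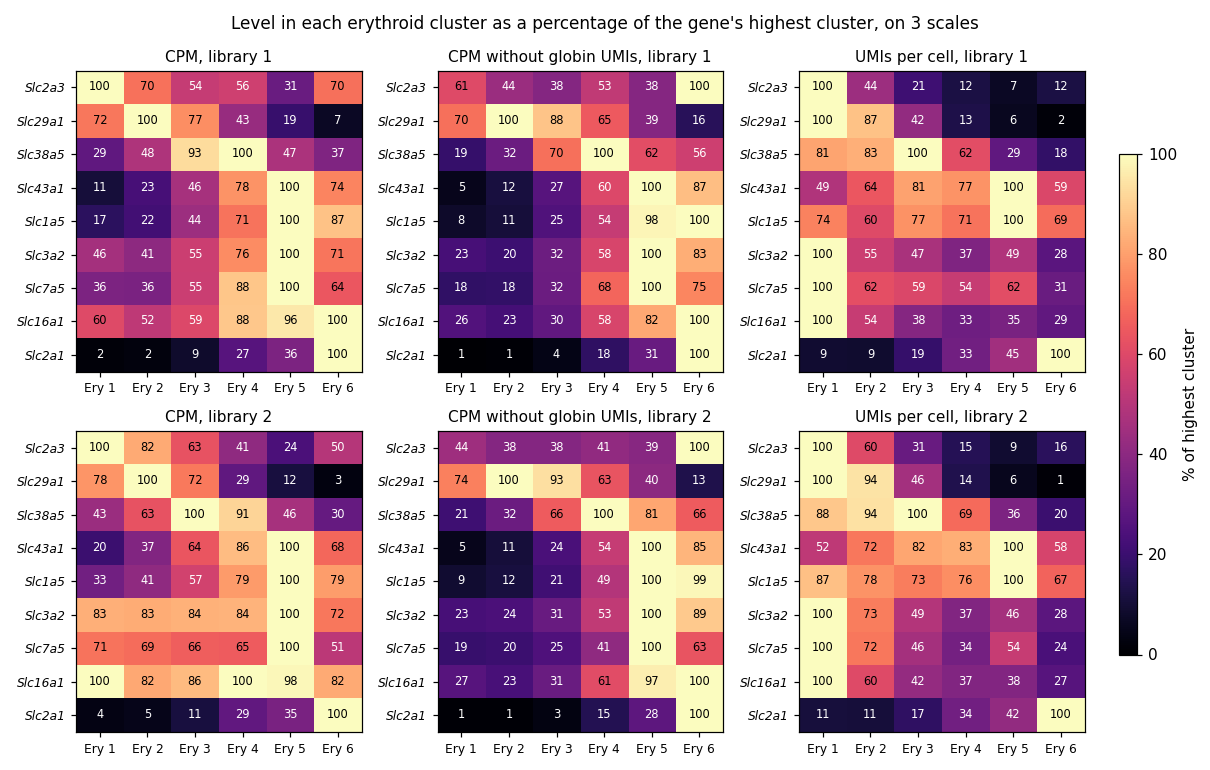
Level in each erythroid cluster (x axis) as a percentage of the gene's highest cluster (colour and numbers), for CPM, CPM without globin UMIs and UMIs per cell (columns) in library 1 (top) and library 2 (bottom). Slc2a1 has its 100% in Ery 6 and Slc43a1 in Ery 5 in all 6 panels, while Slc3a2, Slc7a5 and Slc16a1 have theirs in Ery 1 only per cell.

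A total of 4 fixed pairs of groups were then compared, and a member was counted where its CPM differed at least 2-fold in the same direction in each library. Genes with 10 CPM or more in either group in each library were compared. From HSPC to Ery 1, the step into the erythroid course, 3 members were higher in Ery 1 (all 7129 genes, 5.75%) and none of the 8 compared was lower (all genes, 13.6%). Slc38a5 was 10.7-fold higher in library 1 (95% interval 7.02 to 17.2) and 18.8-fold in library 2 (10.7 to 36.7). Free RNA held 83.6 and 72.4 CPM of Slc38a5, and once it was subtracted as 10% the HSPC level was 0 in both libraries. Slc29a1 was 3.23 and 4.18 times and Slc16a1 2.46 and 2.39 times the HSPC level. The HSPC levels of these members also lay below free RNA in both libraries. Slc29a1 held 70.2 and 53.1 CPM in HSPC against 113 and 114 in free RNA, and Slc16a1 33.1 and 28.5 against 66.9 and 58.7. The size of all these ratios thus depends on the share of free RNA, which was assumed. The median log2 ratio of all genes was 0.01 and 0.02. Slc7a5 was under 10 CPM in both groups of library 1. Per cell, 5 members were higher, Slc3a2 and Slc43a1 in addition (all genes, 30.3%).

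From Ery 1 to Ery 3, the step into erythroblasts that make globin, 3 of 8 members were higher in Ery 3 (all 6401 genes, 5.94%) and none was lower (all genes, 31.7%). Slc2a1 was 5.25 and 3.13 times the Ery 1 level (95% intervals 4.71 to 5.87 and 2.80 to 3.52). Slc43a1 was 4.26 and 3.19 times and Slc38a5 3.17 and 2.30 times that level. Slc1a5 reached 2-fold in library 1 alone, with ratios of 2.66 and 1.71. The Ery 1 levels of Slc2a1, Slc43a1 and Slc1a5 lay below free RNA in both libraries. That of Slc38a5 lay below it in library 1 (68.4 against 83.6 CPM) and level with it in library 2 (72.4 against 72.4 CPM). The size of these ratios thus depends on the assumed share of free RNA. The median log2 ratio of all genes was -0.54 and -0.76. Slc2a1, Slc43a1, Slc38a5 and Slc1a5 thus went against the direction of most genes on this scale. The counts depended on the scale. Without globin UMIs, Slc1a5 was also higher in both libraries, at 3.13 and 2.33 times its Ery 1 level, so that 4 members were higher (all genes, 9.14%). Per cell, where the median log2 ratio was -1.90 and -1.79, none of the 8 was 2-fold higher in both libraries (all genes, 1.73%) and 4 were lower (all genes, 79.7%), namely Slc2a3, Slc3a2, Slc29a1 and Slc16a1. Slc2a1 then held 2.05 and 1.54 times as many UMIs per cell in Ery 3 as in Ery 1, and Slc43a1 1.66 and 1.57 times.

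From Ery 3 to Ery 6, through the later erythroblasts, 1 of 7 members was higher (all 4983 genes, 3.11%) and 2 were lower (all genes, 72.9%). Slc2a1 was 11.7-fold higher in Ery 6 in library 1 (95% interval 11.1 to 12.3) and 8.72-fold in library 2 (8.20 to 9.27), and 19 and 18 of the 4983 genes had higher ratios. Slc29a1 was at 0.0892 and 0.0431 times and Slc38a5 at 0.397 and 0.301 times its Ery 3 level. The other 4 members, Slc43a1, Slc1a5, Slc3a2 and Slc16a1, had ratios between 0.855 and 1.98, against a median log2 ratio of all genes of -1.82 and -2.53.

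Without globin UMIs, these 4 members were at least 2-fold higher in Ery 6 as well, so that 5 members were higher (all genes, 12.3%). On that scale only Slc29a1 was lower (all genes, 40.0%), and Slc38a5 was at 0.797 times its Ery 3 level in library 1 and at the same level in library 2, where the log2 ratio was 0.0001. Per cell, Slc2a1 alone was higher (all genes, 1.46%), at 5.30 and 5.78 times the Ery 3 value, and Slc38a5 and Slc29a1 were lower (all genes, 88.2%). Thus Slc2a1 was higher and Slc29a1 lower in Ery 6 on each of the 3 scales in both libraries, whereas the direction of Slc3a2, Slc43a1, Slc1a5 and Slc16a1 was not the same on all 3.

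EryP, the primitive red cells that reach the liver from the yolk sac, were set against Ery 6, the last definitive cluster. None of the 6 members compared was higher in EryP (all 2388 genes, 4.19%), and 5 were lower (all genes, 24.4%). Slc2a1 measured 104 and 123 CPM in EryP, 0.0419 and 0.102 times the Ery 6 level. Slc16a1 had ratios of 0.0620 and 0.221, Slc1a5 of 0.106 and 0.170, Slc43a1 of 0.129 and 0.313 and Slc38a5 of 0.401 and 0.434. In EryP, Slc16a1 rested on 8 and 12 UMIs (intervals of the ratio 0.0267 to 0.123 and 0.114 to 0.390). Slc1a5 rested on 25 and 20 UMIs. All 5 lower members lay below free RNA in EryP, Slc16a1 at 8.35 and 12.4 CPM against 66.9 and 58.7. With free RNA subtracted as 10%, Slc16a1 in EryP came to 1.85 and 7.29 CPM. The size of these ratios thus depends on the share of free RNA, which was assumed and not measured. Slc3a2 lay closer, at 0.596 and 0.863 times the Ery 6 level, with the median log2 ratio of all genes at -0.86 and -0.34. Without globin UMIs, 4 members were lower (all genes, 13.7%), since Slc38a5 then had ratios of 0.721 and 0.534 and no longer differed 2-fold, and Slc3a2 had ratios of 1.07 and 1.06. The median EryP cell held 5633 and 7160.5 UMIs, and 76.7% and 82.5% of the EryP UMIs were globin. Cells were also filtered to 1000 genes or more, with less than 10% of UMIs mitochondrial. This left 13 and 11 of the 170 and 118 EryP cells, and 177 and 134 of the 1218 and 1176 Ery 6 cells. Between these small parts of both groups, 2 members, Slc2a1 and Slc1a5, remained 2-fold lower in EryP.

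**Figure D4:**
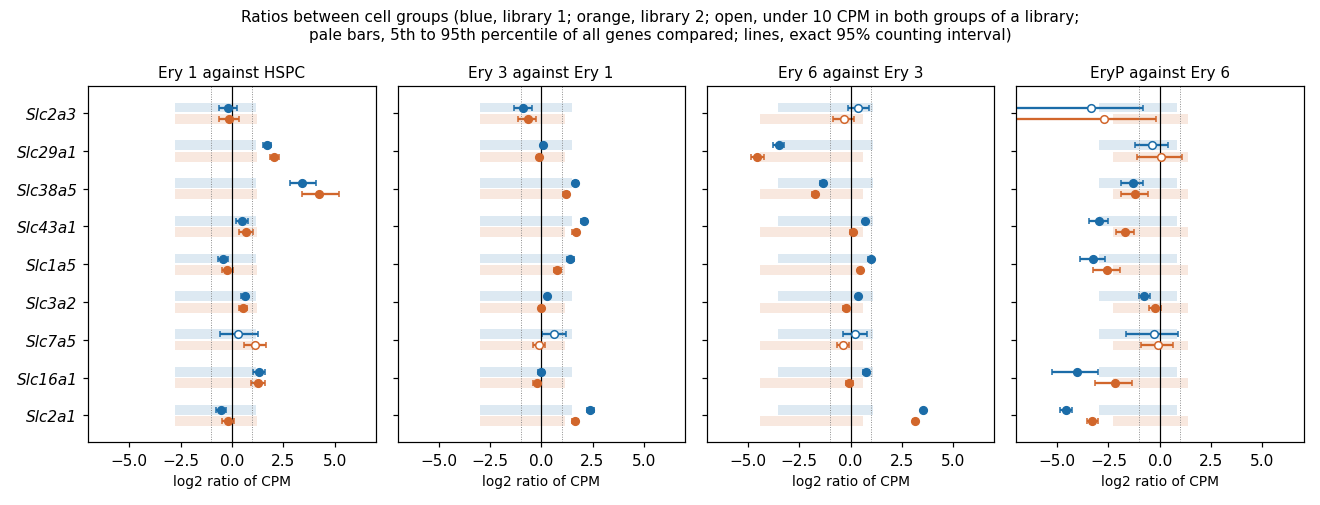
Log2 ratio of CPM (x axes) of each member (rows) for the 4 pairs of groups, in library 1 (blue) and library 2 (orange), with exact 95% intervals as lines and the 5th to 95th percentile of all genes compared as pale bars. Open points are members under 10 CPM in both groups of a library, dotted lines mark a 2-fold difference, and the intervals of Slc2a3 in the last panel run past the axis. Slc2a1 lies beyond the pale bars on the right for Ery 6 against Ery 3 and on the left for EryP against Ery 6 in both libraries.

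Across all 13 groups, Slc2a1 was highest in Ery 6, Slc43a1 and Slc1a5 in Ery 5 and Slc29a1 in Ery 2 in both libraries, and Slc38a5 in Ery 4 or Ery 3. In library 1 the 5 members that reach their highest level in Ery 5 or Ery 6 beside Slc2a1 (Slc43a1, Slc1a5, Slc3a2, Slc7a5 and Slc16a1) were higher there than in every group outside Ery 1 to Ery 6. In library 2 this held for Slc43a1, Slc1a5 and Slc7a5, while Slc3a2 was highest in Mo/KC without differing from Ery 5 beyond counting error. For Slc7a5 in library 1, the interval of Ery 5 (9.78 to 18.6 CPM) overlapped those of EryP (2.94 to 15.1) and Hepa (1.70 to 16.0). Slc2a3 was the 1 member with its highest level outside the erythroid clusters in both libraries. In the non-erythroid groups HSPC, G, Mk, Mo/KC, EC and Hepa, Slc2a1 measured between 42.3 and 99.4 CPM over both libraries, and many neighbours in that order did not differ beyond counting error. Free RNA held more, 441 and 369 CPM. With it subtracted as 10%, these groups came to between 6.01 and 69.4 CPM. Subtracted as 20%, HSPC, G, EC and Hepa came to 0 in both libraries. The part of free RNA in these levels was not tested. The non-erythroid groups were small, with 20 and 26 EC and 33 and 31 Hepa. For Slc7a5, EC of library 1 held no UMI, which allows up to 11.4 CPM as a one-sided limit (3 counts), and 14.1 CPM as the upper bound of the exact Poisson interval.

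**Figure D5:**
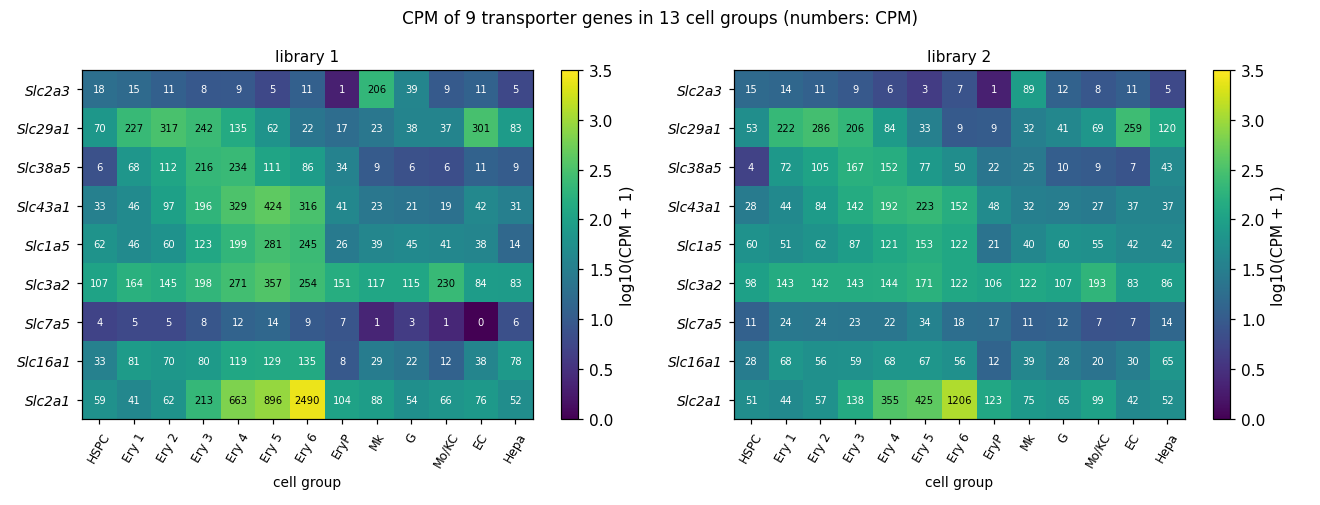
CPM (numbers, with log10(CPM + 1) as colour) of the 9 members (rows) in 13 cell groups (columns) of library 1 (left) and library 2 (right). Slc2a3 stands out in Mk at 206 and 88.7 CPM, Slc29a1 in Ery 2 and EC, and Slc2a1 in Ery 6.

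Shares of cells with at least 1 UMI were compared after each cell had been thinned to 3600 UMIs, which left out 715 shallower cells of library 1 and none of library 2. Slc2a1 was detected in 95.9 and 90.1% of Ery 6 cells (exact binomial 95% intervals 94.5 to 97.1 and 88.3 to 91.8). In Ery 1 the share was 14.1 and 14.8%, not above the 16.9 and 16.2% of granulocytes, and the part of free RNA in either share was not tested. Unthinned, the shares were 96.8 and 95.4% in Ery 6, 59.7 and 59.9% in Ery 1 and 33.8 and 38.5% in G. Median depths were 4378 and 7882.5 UMIs in Ery 6 and 10550 and 14769 in G. The median Ery 6 cell held 10 and 9 Slc2a1 UMIs and the highest 51 and 47.

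Slc29a1 was detected in 64.9 and 59.9% of thinned Ery 2 cells and 7.85 and 2.81% of Ery 6 cells (unthinned, 76.1 and 90.0% and 8.95 and 6.72%), against 8.70 and 7.14% of Mk. Slc43a1 was detected in 77.8 and 55.3% of Ery 5 cells, 15.2 and 13.6% of Ery 1 cells and 2.94 and 12.3% of G (unthinned, 89.3 and 86.3%, 62.9 and 63.2% and 16.6 and 28.5%). Slc38a5 was detected in 53.9 and 44.6% of Ery 3 cells and 1.42 and 1.92% of HSPC (unthinned, 82.9 and 81.8% and 7.51 and 4.33%). Thinned shares were also high in other clusters and groups. Slc2a1 was detected in 77.7 and 60.9% of Ery 4 cells and 86.8 and 69.5% of Ery 5 cells. Slc29a1 was detected in 52.6 and 76.9% of EC. In library 1, Slc43a1 was detected in 68.1% of Ery 4 cells and Slc38a5 in 54.5%. After thinning, these 4 members were therefore detected in most cells of at least 1 cluster in at least 1 library, but not of 1 cluster alone. Each was detected in few cells of another group. This was not particular to them. Slc1a5 was detected in 63.5 and 40.0% of thinned Ery 5 cells and 5.67 and 7.63% of EryP (unthinned, 79.1 and 74.1% and 11.8 and 14.4%). Median depths were 18254 and 20317 UMIs in Ery 2, 9066 and 11395.5 in Ery 3, 5840 and 9749 in Ery 5, 5699 and 16944.5 in Mk and 16053 and 14956 in HSPC. Slc7a5 was detected in at most 4.10% and 11.9% of the thinned cells of an erythroid cluster (unthinned, at most 12.8% and 44.6%).

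Other carriers of the same substrates were followed from a fixed list of 51 genes, 10 for glucose, 28 for amino acids, 6 for nucleosides and 7 for monocarboxylates. Of these, 14 reached 10 CPM in an erythroid cluster of each library, among them Slc2a4 and Slc2a8 for glucose and none for nucleosides, and 3 reached 100 CPM in a group. The counts and levels of these genes are on the CPM scale alone, which globin dilutes in late clusters. Globin made up 15.7% and 28.6% of UMIs in Ery 3 and 58.1% and 78.5% in Ery 6. A lower CPM in Ery 6 than in Ery 3 therefore need not hold without globin UMIs. From HSPC to Ery 1, 2 of 11 compared were at least 2-fold higher in each library (all genes, 5.75%) and none lower (13.6%). From Ery 1 to Ery 3, 3 of 13 were higher (all genes, 5.94%) and 5 lower (31.7%). From Ery 3 to Ery 6, 1 of 11 was higher (all genes, 3.11%) and 5 lower (72.9%), and from Ery 6 to EryP, 2 of 7 were higher (all genes, 4.19%) and 3 lower (24.4%). Slc43a3, placed with the amino acid carriers as a relative of LAT3 although its product carries purine nucleobases, measured 59.0 and 50.9 CPM in Ery 1, 231 and 165 in Ery 3 and 125 and 59.8 in Ery 6. Slc16a3, the lactate exporter MCT4, measured 138 and 167 CPM in Ery 1 and 7.73 and 3.63 in Ery 6. Slc16a10, a carrier of aromatic amino acids, was highest in Ery 6 at 225 and 118 CPM, against 28.5 and 25.8 in Ery 1, and was the 1 gene of the 11 compared that was at least 2-fold higher in Ery 6 than in Ery 3 in each library.

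Partners and regulators of the members were also on the list, and their levels are likewise on the CPM scale alone. Globin dilutes the late clusters on this scale, so a lower CPM in Ery 6 need not hold without globin UMIs. Stom, which encodes stomatin, a membrane protein known to bind GLUT1, measured 24.0 and 19.7 CPM in Ery 1, 205 and 105 in Ery 5 and 171 and 76.1 in Ery 6. Hk1, whose product phosphorylates glucose, had a higher CPM early, with 118 and 115 in Ery 1 and 36.7 and 18.7 in Ery 6. Hk2 did not exceed 7.86 CPM in any erythroid cluster. Emb, which encodes the other MCT chaperone embigin, was at 261 and 219 CPM in HSPC and 3.54 and 2.15 in Ery 1. Myc, a regulator of growth, measured 149 and 103 CPM in Ery 1 and 5.09 and 1.72 in Ery 6. Atf4, a factor that induces amino acid transporters under amino acid shortage, had its highest CPM in Ery 2 at 321 and 274 and held 153 and 77.9 in Ery 6. Its order of clusters without globin UMIs was not computed. Hif1a, which encodes the oxygen-regulated subunit of HIF-1, held 17.0 and 11.6 CPM in Ery 1 and 0.703 and 1.11 in Ery 6. Txnip, which encodes an arrestin-like protein that takes GLUT1 off the membrane, held at most 12.7 CPM in an erythroid cluster.

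For each member, the genes whose log levels followed it most closely over the 13 groups were found among 7356 genes that reached 20 CPM somewhere, by the lower of the Pearson correlations of the 2 libraries. The groups share libraries, depth and globin share, so these values are descriptions only. Slc2a1 was most like Yipf4 (r = 0.972 and 0.952) and Clk3. Slc43a1 was most like Trim59 (r = 0.981 and 0.973) and Rnf123. Slc38a5 was most like Glrx5 (r = 0.966 and 0.956) and Cpox, which encode a mitochondrial glutaredoxin of iron-sulfur cluster assembly and an enzyme of heme synthesis. Slc29a1 was most like Ftsj1 and Ndufa5, Slc1a5 like Fam53b and Azin1, Slc16a1 like Ago2 and 2700097O09Rik, Slc7a5 like Add2 and Slc22a4, Slc3a2 like Usp25 and Ucp2, and Slc2a3 like Rap1b and Rsu1. Among the members themselves, Slc43a1 and Slc38a5 were closest to each other by this measure (r = 0.880 and 0.793), and Slc2a1 was least like Slc29a1 (r = -0.232 and -0.589).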

How the data were processed

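Cells of 1 E12.5 liver were sequenced as libraries 1 and 2. The authors deposited raw UMI counts per gene and barcode, for all barcodes and for called cells, without normalization, and a table that gives each cell a cluster and a type. Their methods name Cell Ranger 2.1.1, mm10, a GRCm38 annotation and Seurat 3.2.0, with doublets removed by sorting. Library 1's matrix carries 3.0.0 as its software version.

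From the deposited counts, UMIs were summed per group and library, and CPM, ratios and shares were computed with exact Poisson, conditional and Clopper-Pearson 95% intervals, which cover counting error only. The kept cells held 51969226 and 62738015 UMIs. Thinning used 1 draw with seed 1. No doublet caller was run, and leaving out the 4% of cells with most UMIs was an alternative. The calls and intervals were tested on simulated data. The members, lists and comparisons were chosen with earlier results of these data known. All 9 members are named, and listed relatives from 100 CPM. Alternatives were each library alone, other denominators, cell filters, folds and free RNA subtraction. Positions are from GENCODE vM21. Figures were drawn with matplotlib 3.10.9 and intervals computed with scipy 1.17.1, in Python 3.11.15 with pandas 2.3.3 and numpy 2.4.6.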

Additional observations from a re-analysis of the deposited data

Results flagged for a closer look

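Barcodes that were not called as cells are outside the comparisons above. In library 1, 168 such barcodes held at least 1000 UMIs and 200 genes, and 5 members were higher in them than in the free RNA of that library, with 95% intervals that did not overlap. Slc2a1 measured 877 CPM (95% interval 787 to 974), against 441 CPM in free RNA. Slc43a1 measured 306 CPM against 156, and Slc38a5 222 CPM against 83.6. Slc3a2 measured 229.9 CPM against 150.4, and Slc16a1 154 CPM against 66.9. In library 2, 3311 such barcodes were found, and no member was higher in them than in free RNA in this way. Slc2a1 measured 310.3 CPM there, against 369 CPM in free RNA. The kept cells of the libraries differed in depth, with 715 under 3600 UMIs in library 1 and 0 in library 2. Barcodes of that depth were thus kept as cells in library 1 alone. The uncalled barcodes of library 1 and library 2 are therefore not like sets, and their difference is not read as one between the libraries. What these barcodes hold was not tested.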

How the results depend on the processing

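No paired analysis was possible because the 2 libraries form 1 group and no test between groups was made. With 1 liver, nothing here measures the spread between animals, and UMI depth limits Slc2a3 and Slc7a5 most. Of the recomputed counts of members, 108 stayed within 1.5 times the reported count and 13 did not. Per cell, 5 members were higher in Ery 1 than in HSPC, 0 were higher and 4 lower in Ery 3 than in Ery 1, and 3 had their highest level in Ery 4 to Ery 6 (all genes, 4.22%). Without globin UMIs, 5 members were higher and 1 lower in Ery 6 than in Ery 3. A fold of 1.5 gave 1 member lower in Ery 3 than in Ery 1 (Slc2a3), and a fold of 3 gave 1 lower in Ery 6 than in Ery 3 (Slc29a1). The filter on genes and mitochondrial UMIs left 2 members lower in EryP. These moves follow from the denominators and thresholds, and the cause of the last was not tested. Leaving out either library changed no count of members past 2-fold or of late peaks by over 1.5 times.

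A share over 50% of thinned cells in an erythroid cluster was reached by 3 members in both libraries (Slc2a1, Slc43a1 and Slc29a1), by 6 in library 1 alone and by 3 in library 2 alone. It was reached by 7 without thinning, by 6 after thinning to 7200 UMIs and by 1 (Slc2a1) at 2 or more UMIs. Of the members' log2 ratios, 378 recomputed values stayed within the counting interval of the reported ratio and 173 moved beyond it. Among ratios of members counted past 2-fold, the direction changed for 1, Slc38a5 from Ery 3 to Ery 6 in library 2. It was 0.0001 on the log2 scale without globin UMIs. Changes of direction in members not counted past 2-fold were not listed apart. An example is Slc3a2 from Ery 3 to Ery 6 in library 2, with a log2 ratio of -0.226 by CPM and 1.51 without globin UMIs. The cluster of the highest level was the same in 140 recomputed cases and another in 22. For Slc16a1 in library 2 it was Ery 1 with the cell filter or without the 4% of cells with most UMIs, and Ery 6 without globin UMIs.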
